A study of Mus musculus with 1 sample.

Results

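The 10 genes described here encode regulators of mitochondrial biogenesis and of mitochondrial shape, and they were examined in 1 RNA-seq library of control glia from mouse ventral midbrain (VM). They were taken by gene symbol from a table of 23282 genes, and each of the 10 symbols matched 1 row. The cells were primary mixed glia of ICR (CD-1) outbred pups at postnatal day 5, grown in serum-containing medium. The label of the library was control, and the file behind it was named for dimethyl sulfoxide (DMSO), the vehicle of the SGK1 inhibitor that the study tested. Glia treated with the inhibitor were not analysed here, so every value is the level in control cells, with no comparison between treatments and no replicate. The number of pups behind the culture is not given in the sources used here, and neither is whether the control cells received the toxins named in the treatment protocol.

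Mitochondria are built from proteins of 2 genomes. The PGC-1 coactivators PGC1α (Ppargc1a) and PGC1β (Ppargc1b) bind transcription factors such as nuclear respiratory factor 1 (Nrf1) and raise the transcription of nuclear genes for the organelle. Tfam packages mitochondrial DNA and helps to start its transcription, and Polg is the catalytic subunit of the polymerase that copies this DNA. The shape of the network depends on fusion, carried out by the mitofusins Mfn1 and Mfn2 at the outer membrane and by Opa1 at the inner membrane, and on fission, in which the dynamin-related GTPase Drp1 (Dnm1l) is recruited to the outer membrane, where Fis1 is anchored. In glia, the organelle supplies energy and heme, buffers calcium and is a source of reactive oxygen species.

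The set showed a wide range of levels. The 2 coactivators were the lowest, and per kilobase of exon the fusion genes and Dnm1l were at similar levels and Fis1 stood far above the rest. In undivided values Fis1 was also the highest, but only 1.15 times Opa1. Because longer transcripts give more reads, levels between genes are compared as value per kilobase, which is the normalized read count divided by the length of all annotated exons of the gene. This length was the union of exons over all transcripts in GENCODE M21 (GRCm38), and the length of the longest annotated transcript was used beside it.

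The promoters of 3 members are shown because they differ in base composition and in a binding motif of one of the members. Each is the stretch of 250 bases before a RefSeq transcription start (GRCm38.p6), 5′ to 3′ on the strand of the gene. The first 2 carry every CpG dinucleotide in capitals, and belong to the member with the lowest value per kilobase, Ppargc1a (chr5:51567726-51567975, minus strand), and to Nrf1 (chr6:30047738-30047987, plus strand). In the third, of Opa1 (chr16:29579084-29579333, plus strand), the capitals mark the core of the NRF1 motif.
Ppargc1a: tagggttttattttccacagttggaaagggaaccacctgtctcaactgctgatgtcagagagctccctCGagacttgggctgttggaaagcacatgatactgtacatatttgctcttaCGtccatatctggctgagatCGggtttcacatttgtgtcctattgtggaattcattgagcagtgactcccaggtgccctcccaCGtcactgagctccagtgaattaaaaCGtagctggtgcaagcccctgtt
Nrf1: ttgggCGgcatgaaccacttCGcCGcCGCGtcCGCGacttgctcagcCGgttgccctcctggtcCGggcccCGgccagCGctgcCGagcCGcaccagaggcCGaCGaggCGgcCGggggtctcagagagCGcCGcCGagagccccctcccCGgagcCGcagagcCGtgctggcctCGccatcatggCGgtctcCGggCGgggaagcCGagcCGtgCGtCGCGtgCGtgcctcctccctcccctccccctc
Opa1: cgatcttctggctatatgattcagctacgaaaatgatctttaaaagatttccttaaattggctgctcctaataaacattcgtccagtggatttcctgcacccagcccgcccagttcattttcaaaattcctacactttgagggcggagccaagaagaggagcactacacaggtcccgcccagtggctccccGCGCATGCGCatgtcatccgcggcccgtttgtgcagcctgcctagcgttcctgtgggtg

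The Ppargc1a stretch held 5 CpG dinucleotides and 48% G and C, whereas the Nrf1 stretch held 33 CpG and 76% G and C. Nrf1 has a second RefSeq start, whose window was poorer in CpG than that of Ppargc1a, with 2 CpG and 46.3% G and C. The NRF1 core GCGCATGC was searched on both strands of windows of 300 bases, from 250 before to 50 after the start. It occurred in 1 of 14 windows of the members, that of Opa1, and in 2.71% of all 32851 windows. The match in Opa1 began 59 bases before the start, and matches on the 2 strands overlapped to form a longer palindrome. Neither the cyclic AMP response element TGACGTCA (1.79% of all windows) nor the estrogen-related receptor element TCAAGGTCA (0.423%) occurred in a window of the members. Only exact matches to these letters were searched, so shorter or variant forms of the elements were not counted. No window for Ppargc1b was analysed here.

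All 10 members had a value of 10 or more, the minimum at which a gene was called detected, while 67.2% of all rows reached it. The values of the members ranged from 215 to 2308 and summed to 12703, or 461 per 1000000 of the sum of all values (27569507). Their median value was 1387, and the median over detected genes was 469. Per kilobase of exon, the median was 204 for the members and 102 for the 15485 detected genes with a known length, and 7 of the 10 members lay above the latter. With the longest transcript as length, 8 of the 10 did, Nrf1 being the addition.

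**Figure D1:**
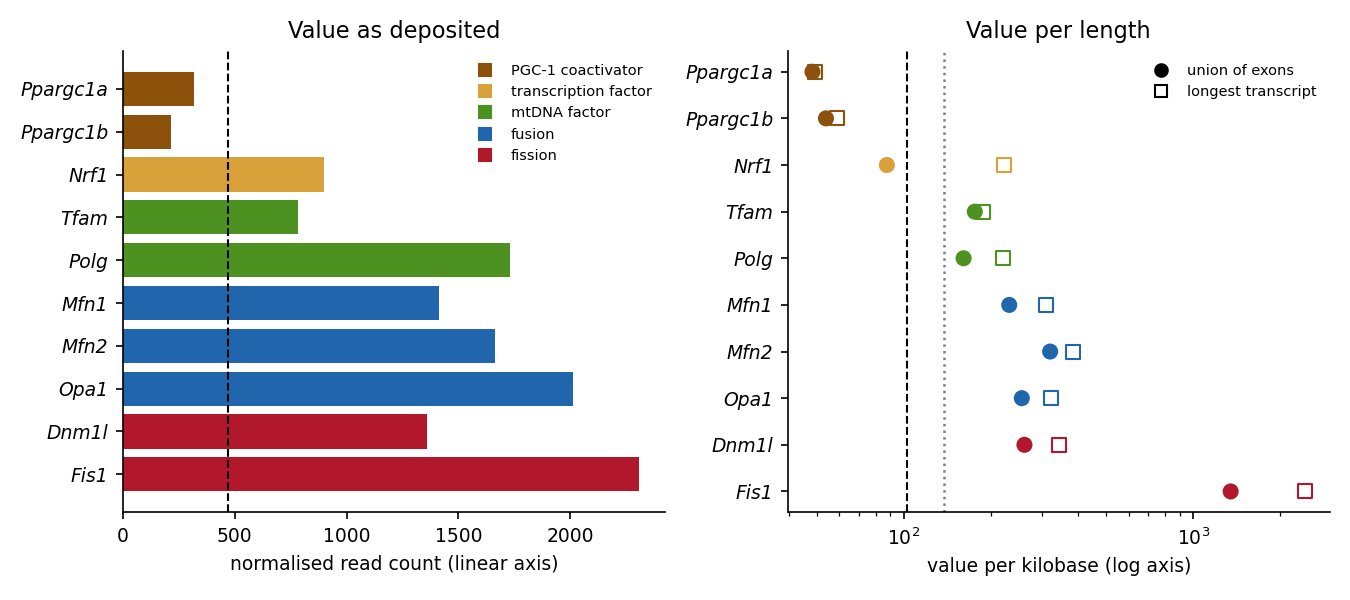
Normalized read count of each member on a linear axis (left) and value per kilobase on a log axis (right) in the 1 control library, coloured by role. Filled circles use the union of exons and open squares the longest transcript. Dashed and dotted lines mark the median over detected genes for the respective measure (469 for values, 102 for the union of exons, 138 for the longest transcript). Ppargc1a and Ppargc1b lie left of the lines in both panels and Fis1 lies farthest right.

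Ppargc1a (chromosome 5, 51454250 to 51567726, minus strand) had a value of 319 and a level of 48.4 per kilobase of exon, which was above 33.8% of detected genes. Ppargc1b (chromosome 18, 61298136 to 61400431, minus strand) had a value of 215 and a level of 53.9 per kilobase, above 35.8% of detected genes. Both coactivators were thus detected, below the median gene. Their order depended on the length used. The ratio of Ppargc1a to Ppargc1b was 0.898 per kilobase of exon and 0.839 per kilobase of the longest transcript, but 1.48 for the undivided values and 1.92 per kilobase of coding sequence. Coding sequence made up 37.0% of the longest Ppargc1a transcript and 84.5% of that of Ppargc1b. Without a replicate the 2 genes cannot be ordered. Pprc1, which encodes the third member of the coactivator family, had a value of 596 and a level of 94.8 per kilobase of exon, 1.96 times that of Ppargc1a.

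Nrf1, a transcription factor for nuclear genes of the respiratory chain (chromosome 6, 30047988 to 30153458, plus strand), had a value of 899. Its level was 87.4 per kilobase of exon, above 46.5% of detected genes, and 222 per kilobase of the longest transcript, above 60.9%. The gap arose from its 20 annotated transcripts, whose exons together span 10282 bases although the longest transcript has 4042. On either length Nrf1 was above both coactivators.

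Among 18 genes listed as partners or regulators of the coactivators, 15 were detected. Of the 18, 5 lay above the median of detected genes per kilobase of exon. The highest was Myc at 377 per kilobase, a broad activator of growth genes whose link to the coactivators was not tested. It was followed by Hcfc1 at 318, a cofactor of transcription, and Yy1 at 219, a zinc finger factor. Gabpa, the DNA-binding subunit of nuclear respiratory factor 2, was at 184 per kilobase, and its exons overlap Atp5j on the opposite strand. Members of several partner families were at unequal levels. Of the estrogen-related receptors, through which PGC1α acts on energy metabolism, Esrra had a value of 408, whereas Esrrb and Esrrg each had a value of 2 and were not detected. Of the peroxisome proliferator-activated receptors, Ppard had a value of 636, Pparg 86 and Ppara 2, the last also below the minimum. Of the catalytic subunits of AMP-activated kinase, which phosphorylates PGC1α, Prkaa1 was at 203 per kilobase and Prkaa2 at 6.40, a ratio of 31.8. Sirt1, the deacetylase of PGC1α, had a value of 298, and the corepressor Nrip1 had 279.

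Per kilobase of exon, the mitochondrial DNA factors lay between the coactivators and the fusion genes, an order that did not hold per kilobase of coding sequence, where Tfam was above the fusion genes, or in undivided values, where Polg was above both mitofusins. Tfam (chromosome 10, 71225464 to 71238280, minus strand) had a value of 781, and Polg (chromosome 7, 79446231 to 79466362, minus strand) had 1729. Per kilobase of exon they were close, at 176 for Tfam and 161 for Polg, above 62.4% and 60.3% of detected genes. The ratio of Tfam to Polg was 1.09 on this measure, 0.850 per kilobase of the longest transcript and 0.452 for the undivided values, so their order was not determined. Only 17.5% of the longest Tfam transcript is coding, and per kilobase of coding sequence Tfam was 2.26 times Polg. Exons of Polg share 921 bases with Fanci, a DNA repair gene on the opposite strand with a value of 337. Without these bases in its length, Polg was at 176 per kilobase.

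All 20 other genes of mitochondrial DNA replication, transcription and nucleoid upkeep were detected, and 8 of them lay above the median of detected genes per kilobase. The highest were the protease Lonp1 at 580.0 per kilobase of exon, which degrades TFAM protein, the single-stranded DNA-binding protein gene Ssbp1 at 288, and Tfb2m at 195, which encodes a factor that starts transcription together with TFAM. Polrmt, the mitochondrial RNA polymerase, was at 140 per kilobase, and Tfam was 1.26 times as high. Twnk, the replicative helicase, was listed under its older symbol Peo1 with a value of 245. The accessory subunit Polg2 had a value of 73, and per kilobase Polg was 9.60 times as high. The lowest per kilobase was Mterf1a at 13.4, a member of the mitochondrial termination factor family. No mitochondrially encoded gene had a row in the table, so transcripts of the genome that Tfam and Polg serve were not measured.

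The 3 fusion genes were at similar levels. Mfn1 (chromosome 3, 32529465 to 32579239, plus strand) had a value of 1415, Mfn2 (chromosome 4, 147873599 to 147904704, minus strand) had 1664, and Opa1 (chromosome 16, 29579334 to 29654884, plus strand) had 2014. Per kilobase of exon the order was Mfn2 at 320.4, Opa1 at 256 and Mfn1 at 231, above 75.1%, 70.7% and 68.6% of detected genes. The ratio of Mfn2 to Mfn1 was 1.38 per kilobase of exon and between 1.15 and 1.24 on the other 3 measures. Mfn2 was therefore the higher mitofusin transcript on each measure, by a small margin that has no replicate error. One of the 10 annotated Mfn1 transcripts carries a stretch of up to 176 bases that matches transcripts of 65 other genes at 95% identity or more, so reads from it can be ambiguous.

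Of 12 genes for proteases, scaffolds and ligases that act on fusion, 11 were detected and 10 lay above the median of detected genes per kilobase. The prohibitins Phb and Phb2, inner membrane scaffolds that stabilize long OPA1, were each at 1073 per kilobase of exon. They were followed by Spg7 at 726, a subunit of the m-AAA protease. The 2 proteases that cleave OPA1, Yme1l1 and Oma1, were at 241 and 201 per kilobase, near Opa1 itself. Marchf5, a ligase of the outer membrane listed as March5, was at 600.5 per kilobase. Pld6, a phospholipase of the outer membrane, had a value of 5 and was not detected.

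The 2 fission genes differed. Dnm1l (chromosome 16, 16312230 to 16358959, minus strand) had a value of 1359 and a level of 261 per kilobase of exon, above 71.2% of detected genes and 1.02 times that of Opa1. It shares 243 exon bases with an antisense gene, Gm49521, and was at 274 per kilobase without them in its length. Fis1 (chromosome 5, 136953275 to 136966234, plus strand) had a value of 2308, the highest of the set. Its level was 1347 per kilobase of exon, above 93.1% of detected genes, and 2435 per kilobase of the longest transcript, above 94.9%. Fis1 was 4.20 times Mfn2, the next member, per kilobase of exon, whereas in undivided values the next member was Opa1 and Fis1 was 1.15 times as high. It is also the shortest member, with 1714 exon bases and a coding sequence of 456 bases, and the part of short length in its high level was not tested.

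The balance of fusion to fission transcripts was taken as the summed level of Mfn1, Mfn2 and Opa1 over that of Dnm1l and Fis1. It was 0.502 per kilobase of exon, 0.366 per kilobase of the longest transcript and 1.39 in undivided values. Because the sums hold 3 and 2 genes, the ratio of the mean levels per gene was also computed, and it was 0.335 per kilobase of exon and 0.926 in undivided values. With Dnm1l as the only fission gene the ratio of mean levels was 1.03 per kilobase of exon. On this measure the fusion genes and Dnm1l were thus at like levels, and Fis1 accounted for the low ratio. In undivided values Dnm1l, at 1359, was below Mfn1 at 1415, Mfn2 at 1664 and Opa1 at 2014.

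**Figure D2:**
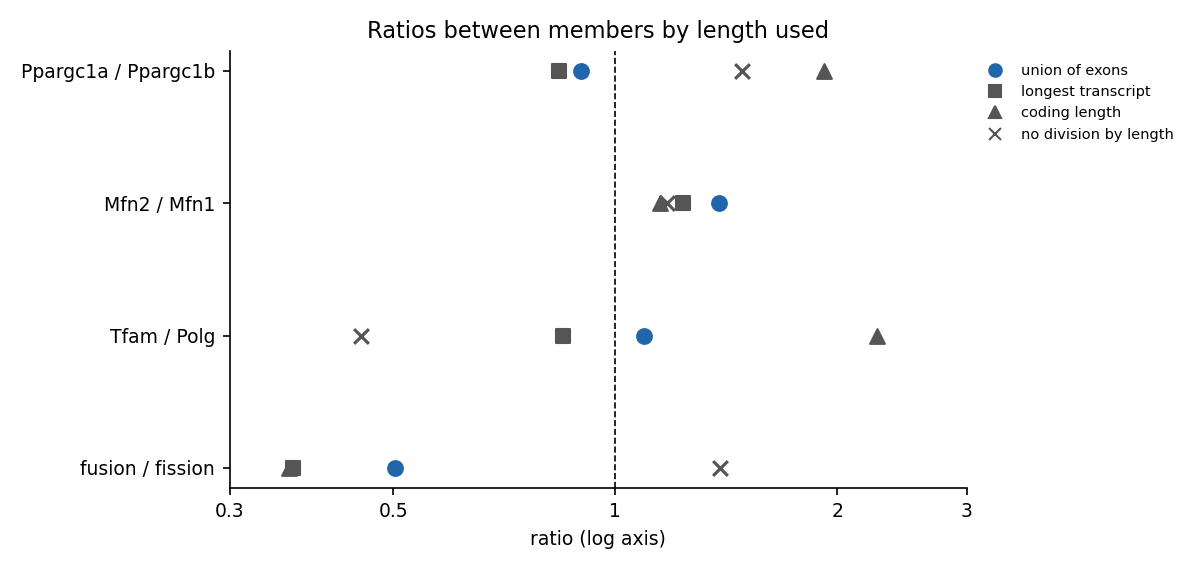
Ratios between members on a log axis, for Ppargc1a to Ppargc1b, Mfn2 to Mfn1, Tfam to Polg, and summed fusion to summed fission genes. Circles use the union of exons, squares the longest transcript, triangles the coding length and crosses undivided values. The dashed line marks a ratio of 1, which the Mfn2 to Mfn1 ratio alone stays on 1 side of.

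All 12 further genes listed as receptors or regulators of fission were detected, and 6 lay above the median of detected genes per kilobase. Dnm2, a dynamin with a wide role in membrane scission, was highest at 1599 per kilobase of exon, 6.12 times Dnm1l. It was followed by Inf2 at 915, a formin that polymerizes actin at fission sites. Mtch2 was next at 391, an outer membrane protein whose assignment to fission was not tested. The receptors that recruit Drp1 were lower than Fis1. Mff was at 158 per kilobase, Mief2 at 90.9 and Mief1 at 39.4. Fis1 was 8.53 times Mff per kilobase of exon and 6.19 times on the longest transcript. In undivided values the gap was smaller, with 2308 for Fis1 and 1540 for Mff. Gdap1, a gene of the outer membrane linked to peripheral neuropathy, was lowest with a value of 22.

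Lists for mitophagy, cristae and transport were also described. Of 11 mitophagy genes all were detected and 9 lay above the median per kilobase. The highest were the adaptor Sqstm1 at 6645 per kilobase of exon, Fkbp8 at 1313 and the receptor Bnip3l at 1095. The kinase gene Pink1 was at 927 per kilobase with a value of 2477, whereas the adaptor gene Calcoco2 was the lowest per kilobase with a value of 21. All 8 genes for the MICOS complex and its partner, which shape the cristae, were above the median, led by Micos10 at 1206 (listed as Minos1), Chchd3 at 1060.2 and Micos13 at 822 (listed as 2410015M20Rik), with Apool lowest at 195. Of 7 transport genes, all were detected and 6 were above the median. Kif5b was at 607 per kilobase, Kif1b at 451 and Trak1 at 174, and Snph, which anchors mitochondria in axons, was lowest at 13.7. The Miro GTPases Rhot1 and Rhot2 were at 152 and 145 per kilobase. Rhot2 shares 1388 exon bases with Gm20683 and Wdr90 on the same strand. Without these bases in its length it was at 211, so the order of Rhot1 and Rhot2 was not determined.

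**Figure D3:**
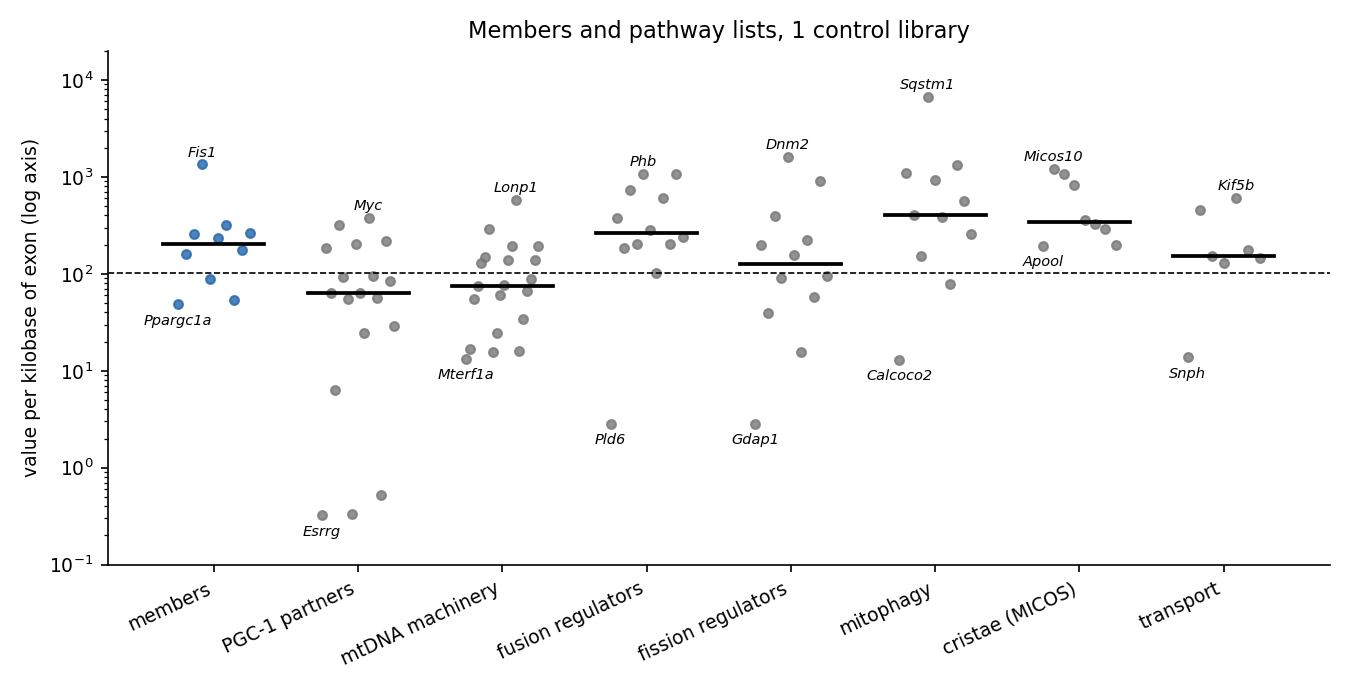
Value per kilobase of exon (log axis) for the 10 members and 7 lists of related genes, 1 point per gene, in the 1 control library. Bars are medians, and the dashed line is the median of detected genes (102). The medians were 204 for the members, 63.3 for the listed PGC-1 partners or regulators and 75.7 for the mitochondrial DNA machinery. They were 264 for fusion regulators, 126 for the genes listed for fission, 407 for mitophagy, 343 for cristae and 152 for transport. The highest and lowest gene of each list is named.

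Per kilobase of exon, the median of the members was below those of 2 families of structural genes of the organelle. The 45 genes with symbols starting with Nduf, for subunits and assembly factors of respiratory complex I, had a median of 1584 per kilobase of exon, and 40 of them were above the median of the members. The 77 genes for mitochondrial ribosomal proteins had a median of 375 per kilobase, and 60 were above the median of the members, although Fis1 lay well above the family median. In undivided values the order differed, with medians of 2571 for the Nduf genes, 1387 for the members and 1016 for the ribosomal genes. The strand setting of the counting is not given, and of the related genes named above, Pprc1, Esrra, Gabpa, Sirt1, Twnk, Polg2, Phb2, Mff, Dnm2, Sqstm1, Fkbp8 and Kif5b share exon bases with a gene on the opposite strand. Among the related genes named above, Esrra, Phb2, Mief1, Pink1 and Rhot2 share exon bases with a gene on the same strand. The Nduf and ribosomal families were chosen after the values of the members were seen.

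**Figure D4:**
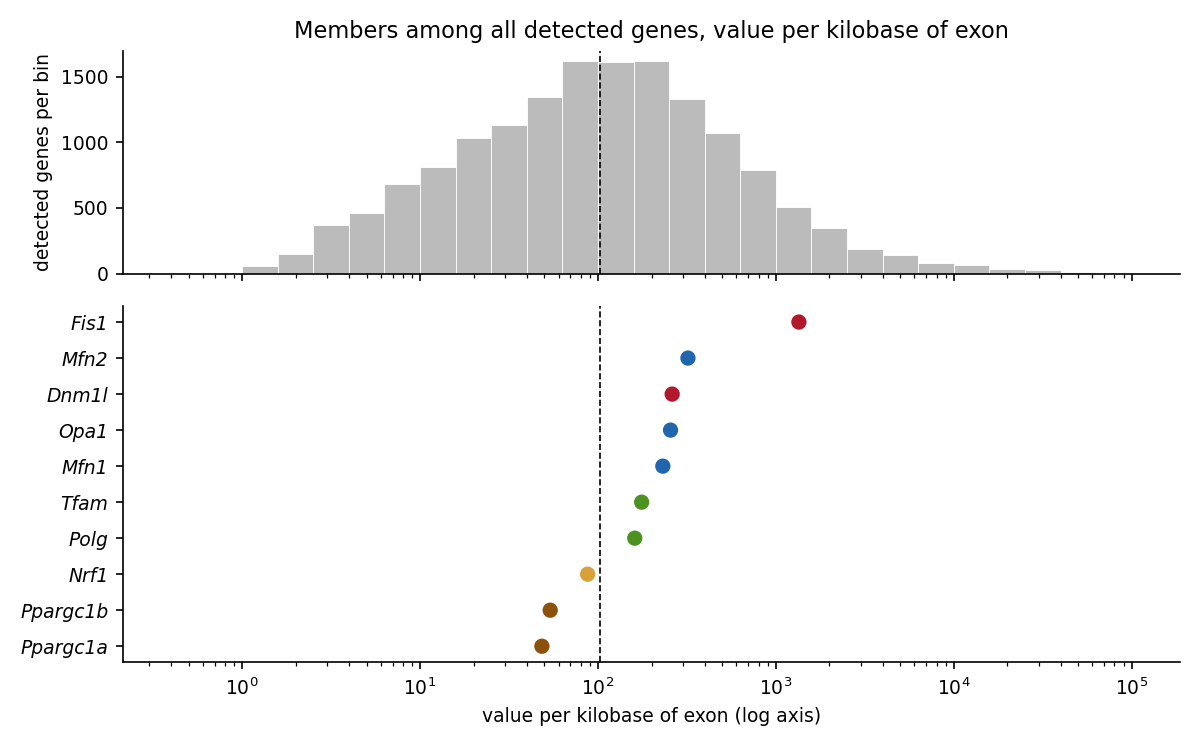
Distribution of value per kilobase of exon over 15485 detected genes (top, genes per bin) and the 10 members on the same log axis (bottom, coloured by role as in the plot of member values). The dashed line is the median of detected genes (102). Members run from 48.4 for Ppargc1a to 1347 for Fis1, a ratio of 27.8, and 5 members lie between 176 and 320.4.

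Most promoter windows of the members held more CpG than the median window. The 14 windows of 300 bases, for 9 members, held 2 to 43 CpG dinucleotides, and 12 of them exceeded the median of all windows, which was 7. Both extremes belonged to Nrf1, whose upstream window held 43, more than 97.4% of all windows, and whose downstream window held 2. The single window of Ppargc1a held 5. A window of Mfn2 with 22 CpG and a window of Dnm1l with 14 matched no start of an annotated GENCODE transcript, and both are counted here. A total of 8 of the 14 windows held 20 or more CpG, compared with 26.5% of all windows. That share includes windows of undetected genes, whereas all members were detected, and the windows of Mfn2 overlap. The difference therefore cannot be read as a trait of the members. CpG content moved with detection across all genes. Among genes with 20 or more CpG in a window, 443 of 475 with an NRF1 core and 5856 of 6261 without one were detected. Among genes below that number in every window, 181 of 214 with a core and 5128 of 10255 without were detected. These shares are across genes of 1 library and carry no test.

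**Figure D5:**
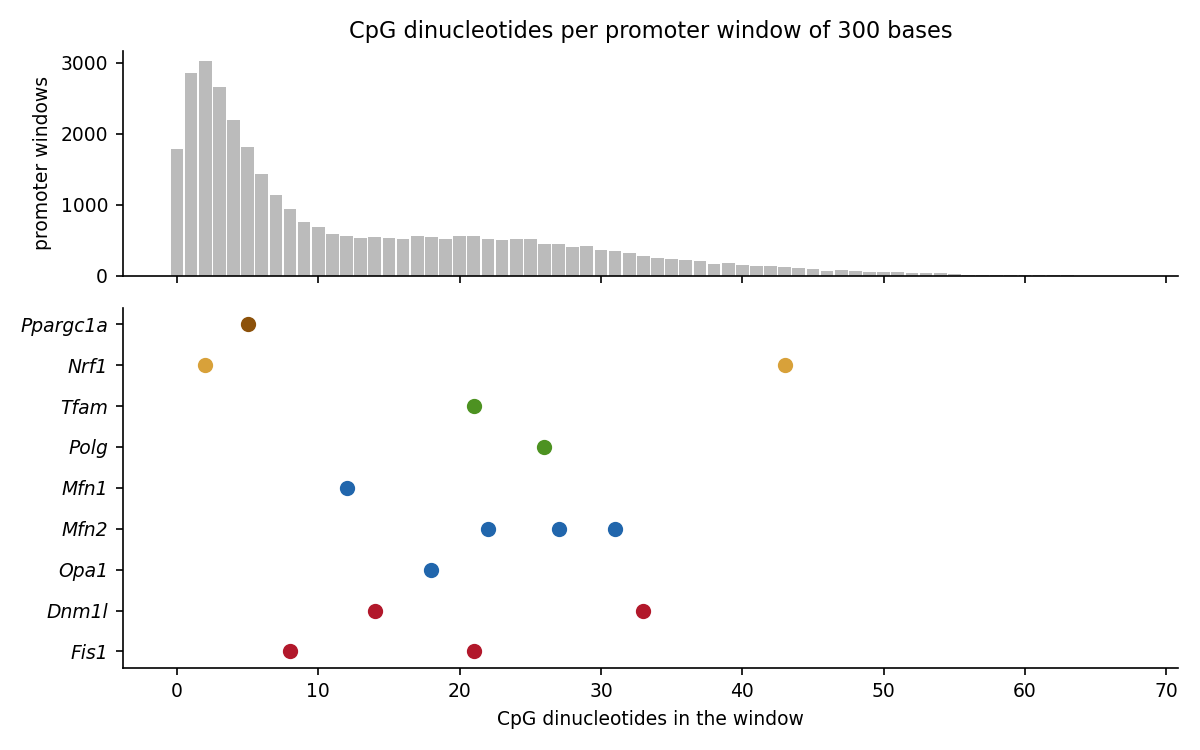
CpG dinucleotides per promoter window of 300 bases, for all 32851 windows (top, number of windows) and for the 14 windows of 9 members (bottom, 1 point per window, coloured by role as in the plot of member values). Most windows hold few CpG, with a median of 7. The Ppargc1a window lies at 5, and each of the other 8 members has at least 1 window above the median.

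The culture was checked against markers of the cell types it could hold. All 6 microglia markers (values 1218 to 32619) and all 6 astrocyte markers (604 to 17222) were detected, as were the 5 mesenchymal markers (455 to 26499) and the 6 oligodendrocyte lineage markers (48 to 16349). Of 6 neuron markers 5 were detected, with values of 20 for Rbfox3 and 3802 for Stmn2, and Syt1 was at 6. Of 4 endothelial markers 2 were detected, and Tek was listed at 0. The values of the members therefore came from a mixture of cells. Fewer cells of a type and less RNA per cell cannot be told apart in such a sample, and which cells carried each member was not tested.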

How the data were processed

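RNA from 1 control culture was sequenced after SMARTer mRNA library preparation. According to the study's methods, the authors trimmed bases of quality under 20, mapped reads to GRCm38/mm10 with STAR and counted reads on RefSeq exons with HTSeq-count. The submitters' processing notes also name TopHat and edgeR. Tool versions, strand setting and the handling of multi-mapped reads are not given in the sources used here. The deposited values, which the authors call normalized read counts, are whole numbers of unstated normalization and were treated as a score, not as raw counts. Their sum was 27569507, the sequencing depth is unknown, and no interval or limit of detection was computed.

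Values were divided by exon lengths from GENCODE M21 (GRCm38), which is not the RefSeq release the authors counted on. Of 23282 rows, 22899 (98.4%) matched a gene model by symbol or older symbol. Detection was set at a minimum value of 10. Near copies were searched in annotated transcripts with BLAST 2.17.0 (95% identity over 100 bases or more). Promoter windows were RefSeq sequences, and 9 of the 10 members matched. The calculation of the percent of genes below a level was tested on simulated data. Division by length was tested only through ratios at the same length, so the levels per kilobase themselves were not tested. Python 3.11.15, numpy 2.4.6, pandas 2.3.3 and matplotlib 3.10.9 were used.

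The members and lists were chosen with earlier results of these data known. The genes named were the 10 members and, of each list, the 3 highest per kilobase, the lowest and those not detected, and genes overlapping a member. One gene of the mitophagy list is not reported here. The other genes were named after their values were seen. Alternatives were the longest transcript, the coding length, undivided values, unshared exon bases, detection minima of 1 and 100, and a total without the 10 highest genes.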

Additional observations from a re-analysis of the deposited data

How the results depend on the processing

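The length used changed the order of members in 2 of 4 ratios with division by length, and undivided values changed 3. The ratio of Ppargc1a to Ppargc1b was 0.898 with the union of exons, 0.839 with the longest transcript, 1.92 with the coding length and 1.48 without division. The ratio of Tfam to Polg was 1.09, 0.850, 2.26 and 0.452 in the same order of settings. The ratio of fusion to fission genes was 0.502, 0.366, 0.361 and 1.39, and 0.450 from means on the log2 scale. Without Fis1, a setting chosen after the data were seen, the ratio came to 3.09. As a mean per gene, also chosen after the data were seen, it was 0.335, 0.926 undivided and 1.03 without Fis1, so the size of the arms sets part of the summed values. The ratio of Mfn2 to Mfn1 was 1.38, 1.24, 1.15 and 1.18, above 1 in each setting. The median of the members was 204, 266 and 635 per kilobase and 1387 undivided. These shifts follow from the lengths themselves, and which length matches the transcripts present was not tested. All 10 members were also detected at minima of 1 and 100. Of all 23282 rows 5075 were at 0, so most rows also passed the minimum of 1. The share of all rows that passed 100 was not computed. The members summed to 461 per 1000000, and to 532 with the 10 highest genes left out of the total. With exon bases shared with other genes left out of the length, Polg moved from 161 to 176 and Dnm1l from 261 to 274 per kilobase. The value itself was kept whole, so this setting can only raise a level. With 1 library and an unknown depth, no difference between members has an error.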
